A study of Mus musculus with 4 samples.

Results

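The chemoattractant receptors described here are 7 G-protein-coupled receptor genes, Fpr1, Fpr2, Ltb4r1, C5ar1, C3ar1, Ptafr and Cmklr1, out of 16739 genes with a value above 0 in any of 4 RNA-seq libraries of tumor-associated macrophages (TAMs). They were chosen by symbol as the receptors for formyl peptides, leukotriene B4, complement fragments, platelet-activating factor (PAF) and chemerin, and all 7 passed the filter on low counts. The choice was made with their fold changes between the groups in view, so those changes are given as a description and without a test. The TAMs were CD45+CD11b+F4/80+ cells sorted from subcutaneous B16-F10 tumors, a melanoma line of the C57BL/6 strain, on day 16 after inoculation of C57BL/6 mice aged 6 to 8 weeks. The WT group held 2 libraries, named WT1 and WT2 here, and the other group held 2 libraries from mice with the genotype Trim24-/-, in which Trim24 is removed from myeloid cells by a Cre recombinase under the lysozyme M promoter (LysM-Cre) acting on floxed alleles. The latter are named KO1 and KO2, or the KO-labelled libraries. That promoter is active in macrophages and monocytes and also in neutrophils. The methods describe the WT mice as littermates, matched for age and sex, but neither they nor the labels state which mice were littermates, which sex was used or whether mice were pooled.

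These receptors sit in the membrane of phagocytes and sense gradients of small molecules or peptides that mark infection, cell death or complement activation. An occupied receptor passes its signal mainly through pertussis-toxin-sensitive Gi proteins, whose beta-gamma subunits switch on phosphoinositide 3-kinase gamma, phospholipase C beta and Rac, and the cell polarizes and moves up the gradient. Formyl peptide and leukotriene B4 receptors are best known from neutrophils and inflammatory monocytes, whereas the C5a and C3a receptors are also prominent on tissue macrophages.

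The sequences just upstream of Fpr1, Fpr2 and Ltb4r1 are printed because these 3 genes had the largest differences between the groups among the 7. Each is the 250 bases before the RefSeq start of the gene in GRCm38.p6, written 5′ to 3′ on the strand of the gene, at chr17:17883940-17884189 (minus strand) for Fpr1, chr17:17887574-17887823 (plus strand) for Fpr2 and chr14:55765712-55765961 (plus strand) for Ltb4r1. Capitals mark a match to GAGGAA, the core letters of the site of the myeloid factor PU.1, here read on the opposite strand.
Fpr1: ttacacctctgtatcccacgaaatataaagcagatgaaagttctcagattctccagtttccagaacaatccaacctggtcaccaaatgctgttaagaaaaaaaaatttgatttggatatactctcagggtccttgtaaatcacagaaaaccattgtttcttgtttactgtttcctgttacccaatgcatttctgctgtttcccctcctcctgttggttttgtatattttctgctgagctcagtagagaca
Fpr2: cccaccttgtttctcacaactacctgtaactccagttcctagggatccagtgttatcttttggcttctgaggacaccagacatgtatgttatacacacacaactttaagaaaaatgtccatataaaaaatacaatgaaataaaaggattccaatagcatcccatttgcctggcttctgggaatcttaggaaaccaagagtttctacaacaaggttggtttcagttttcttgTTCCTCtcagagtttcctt
Ltb4r1: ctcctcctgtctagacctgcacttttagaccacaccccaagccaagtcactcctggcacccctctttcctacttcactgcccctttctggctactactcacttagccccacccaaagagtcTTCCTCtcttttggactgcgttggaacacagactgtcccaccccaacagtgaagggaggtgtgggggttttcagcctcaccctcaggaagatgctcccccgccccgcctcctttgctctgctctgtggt
A window was found for all 7 genes and searched on both strands. RefSeq and GENCODE do not place every start alike. The window of Cmklr1 lay inside the GENCODE span given for the gene below, and that of C5ar1 lay partly inside its own. The letters GAGGAA were present in 4 of the 7 windows, those of Fpr2 (bases -19 to -14 from the start), Ltb4r1 (-129 to -124), Ptafr (-242 to -237) and Cmklr1 (-98 to -93), and in 23.3% of 32851 RefSeq windows of the same length. The letters TGANTCA of the AP-1 site were found in the window of C3ar1 alone among the 7 (-22 to -16) and in 6.75% of all windows. Neither TTGCNNAA of the C/EBP site nor the STAT6-type motif, TTC and GAA spaced by 4 bases, was found in any of the 7, against 9.56% and 5.85% of all windows, and no match overlapped another. The GC content was 38.4% for Fpr1, 38.8% for Fpr2, 45.6% for C3ar1, 50.4% for Cmklr1, 52.8% for C5ar1, 56.0% for Ptafr and 56.8% for Ltb4r1. The neighbouring genes Fpr1 and Fpr2 thus had the lowest GC content of the 7, and Fpr1 carried none of the 4 motifs.

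Library totals ran from 4476122 to 5172407 expected counts, and 3 counts corresponded to 0.606 to 0.639 CPM (normalised read counts, on TMM-scaled library sizes). The targeted gene did not separate the groups, with Trim24 at 5.86 CPM in WT1, 2.08 in WT2, 3.41 in KO1 and 0.411 in KO2, so the genotype of the KO-labelled libraries rests on their labels. Which part of the transcript the deletion removes was not examined here. Of the gate genes, Ptprc (CD45) ranged from 534 to 796 CPM, Itgam (CD11b) from 489 to 1172 CPM and Adgre1 (F4/80) from 1038 to 1304 CPM over the 4 libraries, so every library carried all 3. Xist was at 10.9 CPM in WT1, 6.46 in WT2, 437 in KO1 and 256 in KO2, and all 4 Y-linked genes examined were lower in both KO-labelled libraries than in both WT libraries. These sex-linked transcripts thus followed the genotype label, against the stated matching for sex, and a difference in sex and the label cannot be told apart in any contrast below. No library was a copy of another, since replicate counts differed beyond sampling noise in both groups (chi-square over its degrees of freedom 8.57 for WT and 19.2 for the KO-labelled pair).

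The 7 receptors spanned a wide range of abundance in TAMs. On the length-scaled FPKM scale, the complement receptors C5ar1 and C3ar1 were at the top in every library. They stood above 97.3% to 98.7% of the genes with an FPKM above 0 in the same library. The PAF receptor Ptafr came next, above 86.5% to 91.7% of those genes. The ranges of C5ar1, C3ar1 and Ptafr over the 4 libraries did not overlap one another, and their order was the same in all 4. Below them the order differed between the groups. In the WT libraries Cmklr1 followed Ptafr, and Ltb4r1 and Fpr1, which changed places between the replicates, stood above Fpr2. In both KO-labelled libraries the order was Fpr1, Ltb4r1, Fpr2 and then Cmklr1.

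**Figure D1:**
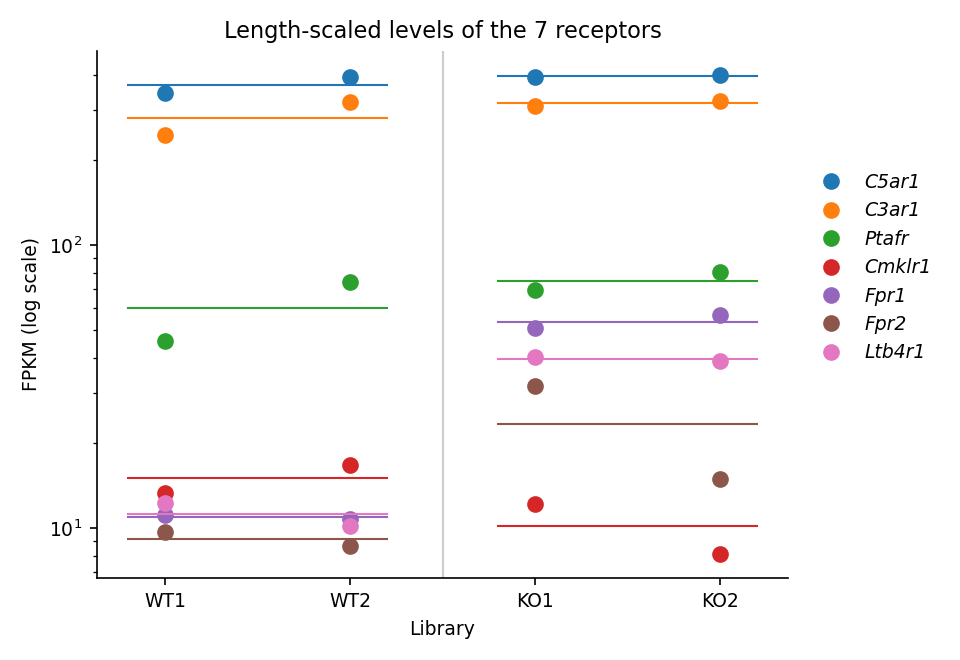
Length-scaled level (FPKM, log scale) of each of the 7 receptor genes in each of the 4 libraries, with 1 point per library and a horizontal line at the mean of the 2 libraries of each group. C5ar1, C3ar1 and Ptafr keep the top places throughout, and Fpr1, Fpr2 and Ltb4r1 lie below Cmklr1 in the WT libraries and above it in the KO-labelled libraries.

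The 7 receptors together summed to 681 FPKM in WT1, 830 in WT2, 908 in KO1 and 923 in KO2. C5ar1 and C3ar1 made up 86.5% and 85.5% of this sum in the WT libraries and 77.5% and 78.4% in the KO-labelled libraries. Fpr1, Fpr2 and Ltb4r1 made up 4.86% and 3.57% in the former and 13.54% and 11.98% in the latter. The makeup of the receptor pool therefore differed in each pair of libraries taken across the groups, although the complement receptors stayed its main part in all 4.

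Fpr1 encodes the high-affinity receptor for formylated peptides, which bacteria and damaged mitochondria release. Fpr1 (Entrez gene 14293) occupies bases 17876471 to 17883940 of chromosome 17, minus strand, in GRCm38 and is split into 2 exons (GENCODE, longest transcript). Its abundance was 14.3 CPM in WT1, 13.3 in WT2, 70.7 in KO1 and 79.5 in KO2. Both of the latter lay far above both WT libraries, the lower of them at 4.93 times the higher WT value. The group means were 13.8 ± 0.708 and 75.1 ± 6.23 CPM (SD, n = 2 each), and the fitted difference between the groups was 2.44 on the log2 scale (standard error 0.21), a 5.42-fold higher level. In a bulk sample a different share of cells that carry a transcript and a different amount of it per cell cannot be told apart. In FPKM, the levels were 11.13 and 10.81 against 50.96 and 56.46.

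Fpr2 (Entrez gene 14289) lies beside Fpr1 on chromosome 17 (bases 17887824 to 17893952, plus strand) and has 2 exons. It encodes a more promiscuous receptor that binds formyl peptides, serum amyloid A and annexin A1. Its abundance was 12.1 CPM in WT1, 10.4 in WT2, 42.6 in KO1 and 20.3 in KO2. Both of the latter were above both WT libraries, but they were themselves 1.07 apart on the log2 scale, while the median gene differed by 0.31 between these replicates. The means were 11.3 ± 1.2 and 31.5 ± 15.7 CPM (SD, n = 2 each), and the fitted log2 difference was 1.48 (standard error 0.36). It came to 0.86 without KO1 and 1.92 without KO2. The Fpr1 to Fpr2 ratio in FPKM was 1.15 and 1.24 in the WT libraries and 1.61 and 3.78 in the KO-labelled libraries, so it differed more between KO1 and KO2 than between the WT libraries. Fpr2 overlaps Fpr3 on the same strand. Fpr3 had no value above 0 in any library. The deposited tables list only values above 0 and a gene without an entry was set to 0, so for such a gene a true absence of reads and a gene that was not quantified cannot be told apart. Expected counts of Fpr1 and Fpr2 were fractional in 3 of 4 libraries each, those of Ptafr and Cmklr1 in all 4 and that of C3ar1 in 1, so some reads were shared out by RSEM between genes with like sequence, and these levels are uncertain to that extent.

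Ltb4r1 encodes BLT1, the high-affinity receptor for the lipid leukotriene B4, which relays chemotactic signals between leukocytes. It lies on chromosome 14 (bases 55765962 to 55768494, plus strand) and has 2 exons (Entrez gene 16995). Its abundance was 16.6 CPM in WT1, 13.1 in WT2, 58.4 in KO1 and 57.5 in KO2. The latter lay close together, and the lower of them was at 3.47 times the higher WT value. The means were 14.8 ± 2.43 and 57.9 ± 0.585 CPM (SD, n = 2 each), and the fitted log2 difference was 1.96 (standard error 0.22), a 3.9-fold higher level. All 4 counts were whole numbers. Ltb4r2, the low-affinity receptor for the same lipid, was below 3 counts or at 0 in every library.

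C5ar1 encodes the receptor for C5a, the strongest chemoattractant among the complement fragments. It lies on chromosome 7 (bases 16246743 to 16259540, minus strand) and has 2 exons (Entrez gene 12273). Its abundance was 836 CPM in WT1, 912 in WT2, 1028 in KO1 and 1062 in KO2. The groups did not overlap, but the difference was small, with means of 874 ± 53.6 and 1045 ± 24.2 CPM (SD, n = 2 each) and a fitted log2 difference of 0.26 (standard error 0.21). In FPKM the separation narrowed to 343.57 and 390.93 in the WT libraries against 392.54 and 399.63 in the KO-labelled libraries. C5ar2, a second C5a receptor that does not couple to G proteins, was far less abundant, with C5ar1 at 32.7 to 58.9 times its FPKM.

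C3ar1, the receptor for the complement fragment C3a, lies on chromosome 6 (bases 122847138 to 122856161, minus strand) and has 2 exons (Entrez gene 12267). Its abundance was 1038 CPM in WT1, 1295 in WT2, 1416 in KO1 and 1499 in KO2. The groups did not overlap in CPM, with means of 1167 ± 182 and 1458 ± 59.1 (SD, n = 2 each) and a fitted log2 difference of 0.32 (standard error 0.22). In FPKM they did overlap, since WT2 was at 319.27 and KO1 at 310.54. The C5ar1 to C3ar1 ratio in FPKM stayed between 1.22 and 1.4 over the 4 libraries, and among the 21 pairs of the 7 receptors these complement receptors had the most alike profiles, with a root-mean-square distance of 0.0784 between their row-centred log2 CPM.

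Ptafr encodes the receptor for PAF, a phospholipid mediator of inflammation. It lies on chromosome 4 (bases 132564067 to 132582683, plus strand) and has 2 exons (Entrez gene 19204). Its abundance was 165 CPM in WT1, 254 in WT2, 269 in KO1 and 316 in KO2. WT1 stood low and WT2 lay next to the other group, so the gap between the groups was smaller than the spread within WT. In FPKM the groups overlapped, with WT2 at 73.78 and KO1 at 69.35. The means were 209 ± 63.5 and 293 ± 33.7 CPM (SD, n = 2 each), and the fitted log2 difference of 0.48 (standard error 0.24) came to 0.22 without WT1 and to 0.83 without WT2.

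Cmklr1, the receptor through which the adipokine chemerin attracts macrophages and dendritic cells, was the only one of the 7 with a lower mean in the KO-labelled libraries. It lies on chromosome 5 (bases 113612354 to 113650426, minus strand) and has 3 exons (Entrez gene 14747). Its abundance was 37.0 CPM in WT1, 44.8 in WT2, 36.6 in KO1 and 24.7 in KO2. The lower WT library and the higher library of the other group were almost level, at a ratio of 0.991. The means were 40.9 ± 5.55 and 30.6 ± 8.47 CPM (SD, n = 2 each), with a fitted log2 difference of -0.42 (standard error 0.24) that came to -0.16 without KO2. Its GENCODE span overlaps that of the antisense gene Gm15736, but exons were not compared. By the RefSeq start used for the promoter window, Gm15736 lies upstream of Cmklr1. The sources used here do not state that counting used strand, so any reads that the pair shares cannot be told apart.

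**Figure D2:**
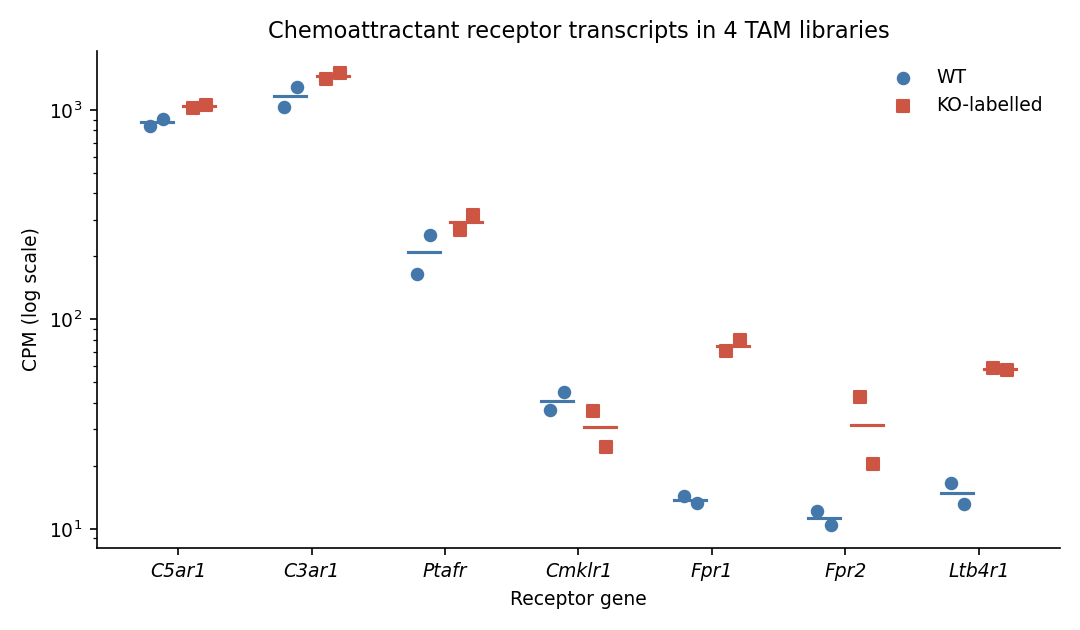
Abundance (CPM, log scale) of the 7 receptor genes, with circles for the 2 WT libraries, squares for the 2 KO-labelled libraries and a horizontal bar at each group mean. The groups are far apart for Fpr1 and Ltb4r1, apart with spread-out squares for Fpr2, and close together for C5ar1, C3ar1, Ptafr and Cmklr1.

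Across the 7 receptors, the CPM of both KO-labelled libraries lay above both WT values for 6 of the 7 and below them for 1, against 21.4% and 23% of all genes (44.5% in either direction). On the deposited FPKM scale, C3ar1 and Ptafr overlapped between the groups. A fitted fold above 1.5 was reached by 3 of the 7, Fpr1, Fpr2 and Ltb4r1, and by 7.65% of all genes in the same direction. The median log2 difference was 0.48 for the 7 and -0.01 for all genes tested. Nothing is read from these counts, since the choice of the genes used this contrast. Fpr1 ranked 29th, Ltb4r1 65th and Fpr2 122nd among all genes by log2 difference, and Ptafr 1171st, C3ar1 2031st, C5ar1 2543rd and Cmklr1 9421st. The receptors thus fell into 3 genes near the top of the list and 4 well inside it.

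The profiles of the 7 over the 4 libraries, which rest on the same values as the differences above, can be set side by side as the root-mean-square distance between row-centred log2 CPM. It was 0.254 for Fpr1 and Ltb4r1 and 0.472 for Fpr2 and Ltb4r1. Fpr2 was about as far from Fpr1 (0.683) as from C3ar1 (0.69), C5ar1 (0.696) and Ptafr (0.699), and Ptafr and Cmklr1 were 0.566 apart. The largest distance among the 7 was 1.46, between Fpr1 and Cmklr1. Relative to the gate gene Adgre1, Fpr1 was at 13.8 and 11.8 CPM per 1000 Adgre1 CPM in WT1 and WT2 against 56.7 and 61.0 in KO1 and KO2. Ltb4r1 was at 15.9 and 11.6 against 46.8 and 44.1 on that scale. C5ar1 was at 805 in both WT libraries and at 825 and 815 in the others, so its small difference in CPM ran alongside that of Adgre1.

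Outside the 7, the genes whose profile over the 4 libraries was nearest to the mean profile of the receptors were Gm5431, Sesn2, Csf3r, Akap7 and Igf2bp2, with distances of 0.0342 to 0.0531 among 9025 genes of sufficient abundance (mean log2 CPM 3 or more). Csf3r, the receptor for granulocyte colony-stimulating factor, was at 87.0 CPM in WT1, 96.9 in WT2, 170.0 in KO1 and 157 in KO2. The mean profile draws most of its range from Fpr1, Fpr2 and Ltb4r1.

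Among 19 related receptors that are not in the set, none was called in either direction by edgeR's quasi-likelihood test (fold above 1.5, FDR below 0.05), a rule that called 0.292% of the 11302 genes tested higher, 0.0796% lower and 0.372% in either direction. An unadjusted p under 0.05 was found for 4 (3 of them higher), against 12.2% of all genes (6.58% higher), and DESeq2 called 1 higher, against 1.17% of all genes. Only 10 passed the filter on low counts, with a median log2 difference of 0.32. The most abundant was P2ry6, a receptor for uridine diphosphate, at 323 and 294 CPM in WT1 and WT2 against 301 and 353 CPM in KO1 and KO2, which overlapped. Cysltr1, which binds cysteinyl leukotrienes, was at 88.6, 83.3, 104 and 119 CPM in the same order, a log2 difference of 0.37 (standard error 0.18). Gpr35 had a log2 difference of 1.10 (standard error 0.21) with 50.7 and 43.1 against 114 and 87.5 CPM, and did not pass at an adjusted p of 0.0759 (edgeR). Ccrl2, which presents chemerin without signalling itself, was at 44.4 and 17.1 against 53.2 and 65.1 CPM, with WT2 standing low. The count of calls became 1 without WT1, 2 without KO1 and 4 without KO2, while calls over all genes went to 0.563%, 3.46% and 5.54% in the same settings and to 0.215% without WT2. The other formyl peptide receptor genes on the list, Fpr3, Fpr-rs3, Fpr-rs4, Fpr-rs6 and Fpr-rs7, had no value above 0 in any of the 4 libraries, nor had the chemerin receptor Gpr1.

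Of 24 genes for the ligands of these receptors and for the enzymes that make or break them, 17 were tested. Pla2g7, the secreted phospholipase that inactivates PAF, was the only one called by edgeR (0.372% of all genes were), and it rose. It was at 108 CPM in WT1, 131 in WT2, 302 in KO1 and 361 in KO2, a log2 difference of 1.47 (standard error 0.21, adjusted p = 0.0195 by edgeR). The call was lost when either WT library was left out, which left 0 genes called, while 7 genes were called when either KO-labelled library was left out, settings that called 3.46% (without KO1) and 5.54% (without KO2) of all genes. A further 7 of the 17 were higher at an unadjusted p under 0.05, where 6.58% of all genes were, and none was lower. DESeq2 called 5 of the 17 higher, Pla2g7 among them, against 1.17% of all genes.

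Genes of the alternative complement pathway ranged widely. Cfd (factor D) had no value above 0 in any library. Cfb (factor B) was at 457 and 324 CPM in WT1 and WT2 against 1047 and 916 CPM in KO1 and KO2, and Cfp (properdin) at 735 and 667 against 986 and 1226 CPM. Neither passed the edgeR test, with adjusted p-values of 0.0625 and 0.266 (edgeR). C3, the precursor of C3a, was at 47.9 and 46.0 against 170.0 and 95.3 CPM (adjusted p = 0.0625, edgeR), whereas Hc, the precursor of C5a, was at 0 in 3 libraries and at 0.616 CPM in KO2. Along the leukotriene B4 route, Alox5ap, the partner protein of 5-lipoxygenase, was at 345, 295, 354 and 396 CPM and Lta4h, the enzyme that forms leukotriene B4, at 65.4, 57.3, 62.0 and 65.5 CPM in the same order, so neither separated by more than its spread. Cyp4f18, which degrades leukotriene B4, was at 129 and 113 against 238 and 320 CPM (adjusted p = 0.0625, edgeR). Of the Fpr2 agonists, Anxa1 was at 137, 219, 129 and 254 CPM and overlapped between the groups. Saa3 was at 4.24 and 2.29 against 18.1 and 161 CPM, with nearly all of its level in KO2. The chemerin gene Rarres2 was under 3 CPM in every library. Of the genes in this paragraph, DESeq2 called Cfb, C3, Cyp4f18 and Saa3, all of them higher. In this paragraph, only Cfb, Cfp and Alox5ap follow from the naming rule, and the others were chosen as partners of the receptors after their values were seen.

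All 38 genes of the signalling machinery passed the filter, and their median log2 difference was 0.05. An unadjusted p under 0.05 (edgeR) was found for 4 of the 38, 2 of them higher, against 12.2% of all genes. DESeq2 called 1 higher, against 1.17% of all genes. Against 0.372% of all genes called by edgeR, Fgr, a Src-family kinase of myeloid cells, was the only one of the 38 called. It rose from 48.3 CPM in WT1 and 49.0 in WT2 to 114 in KO1 and 109 in KO2, a log2 difference of 1.19 (standard error 0.18, adjusted p = 0.0331 by edgeR), and the call was lost when either WT library was left out. Without KO1 3 of the 38 were called, where 3.46% of all genes were. The most abundant members, Cdc42, Rac1, Lyn and Gnb1, had log2 differences of 0.14, -0.17, 0.13 and 0.06. Gnai2, the main Gi alpha subunit of leukocytes, which was named after its values were seen, was at 237 and 322 against 163 and 194 CPM and did not pass (adjusted p = 0.278, edgeR). The median of the list was thus close to that of all genes, -0.01.

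**Figure D3:**
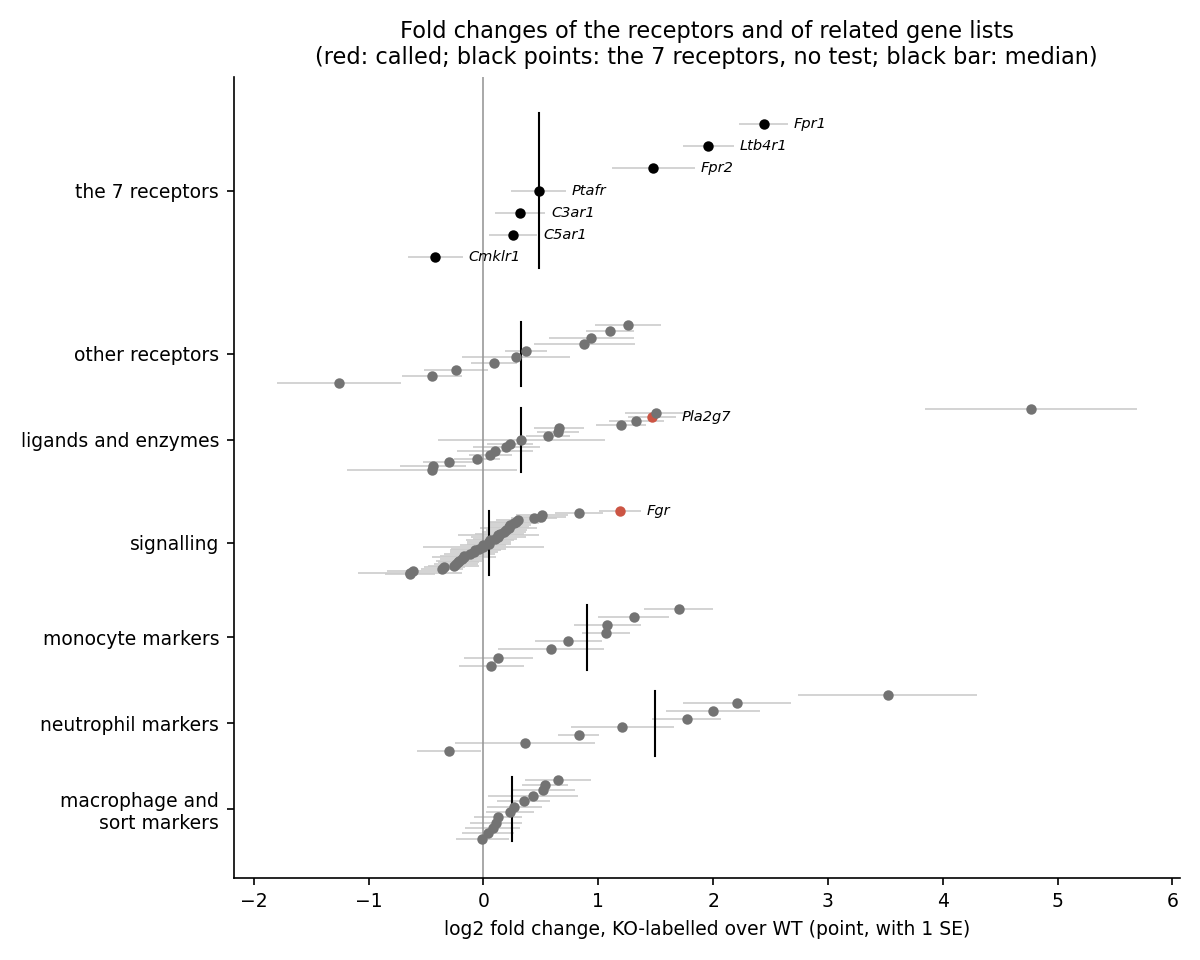
Log2 fold change of each tested gene, KO-labelled libraries over WT, for the 7 receptors and 6 related lists, with 1 point per gene, a bar of 1 standard error and a black line at the median of the list. Outside the receptors, which are black and carry no test, genes called by edgeR are red, namely Pla2g7 and Fgr, and the medians run from 0.05 for signalling to 1.49 for neutrophil markers.

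Markers of monocytes and neutrophils, which carry some of these receptors, were set beside Fpr1, Fpr2 and Ltb4r1. The sort required F4/80 as well as CD11b, and its purity was not examined here. All 8 monocyte markers reported here were tested and had a log2 difference above 0, with a median of 0.90. None of these 8 was called by edgeR, 5 were higher at an unadjusted p under 0.05 (6.58% of all genes), and DESeq2 called 4 (1.17% of all genes). Their summed level was 1457 CPM in WT1, 1591 in WT2, 2798 in KO1 and 3037 in KO2. Ly6c2 was at 190.0 and 176 against 616 and 295 CPM, Ms4a4c at 343 and 330.0 against 771 and 643 CPM, and Ccr2 at 170.0 and 332 against 429 and 408 CPM. F13a1 was at 514 and 475 against 320.0 and 1163 CPM and overlapped. The log2 differences of Plac8, Chil3, Vcan and Fn1 were 1.7, 1.08, 0.13 and 0.07. Chil3, also named Ym1, is counted by the paper among the genes of alternatively activated (M2) macrophages. When either KO-labelled library was left out, 4 of the 8 were called, in settings that called 3.46% and 5.54% of all genes. Ly6c2 was higher in KO1 than in KO2, and F13a1 was higher in KO2.

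None of 14 neutrophil markers was called by edgeR, 8 were tested, 6 were higher at an unadjusted p under 0.05 (6.58% of all genes), and DESeq2 called 4 (1.17% of all genes). Their summed level was 198 CPM in WT1, 237 in WT2, 317 in KO1 and 510 in KO2. The log2 difference was above 0 for 7 of the 8 tested, and their median was 1.49. The granule genes Elane and Mpo had no value above 0 in any library. The surface marker Ly6g was at 0 in both WT libraries and at 1.92 CPM in KO1 and 0.822 in KO2. Whether neutrophils were present or absent was not tested with these genes. S100a8 was at 17.4 and 15.6 against 35.1 and 118 CPM and S100a9 at 6.66 and 9.38 against 19.2 and 44.8 CPM, each highest in KO2. Csf3r, given above, was higher in both KO-labelled libraries but did not pass (adjusted p = 0.12, edgeR). Cxcr2, the chemokine receptor of mature neutrophils, was at 63.6 and 84.0 against 42.8 and 76.8 CPM and overlapped. The log2 difference was 3.52 for Lcn2, 1.77 for Il1r2, 1.21 for Mmp8 and 0.36 for Mmp9. Lcn2, Il1r2 and Mmp8 did not pass (adjusted p = 0.123, 0.0518 and 0.322, edgeR). DESeq2 called Lcn2 and Il1r2 higher. Without KO1 7 of the 14 were called, and without KO2, where the S100 genes were highest, 5 were, against 3.46% and 5.54% of all genes. The part of monocytes and neutrophils in the levels of Fpr1, Fpr2 and Ltb4r1 was not tested.

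**Figure D4:**
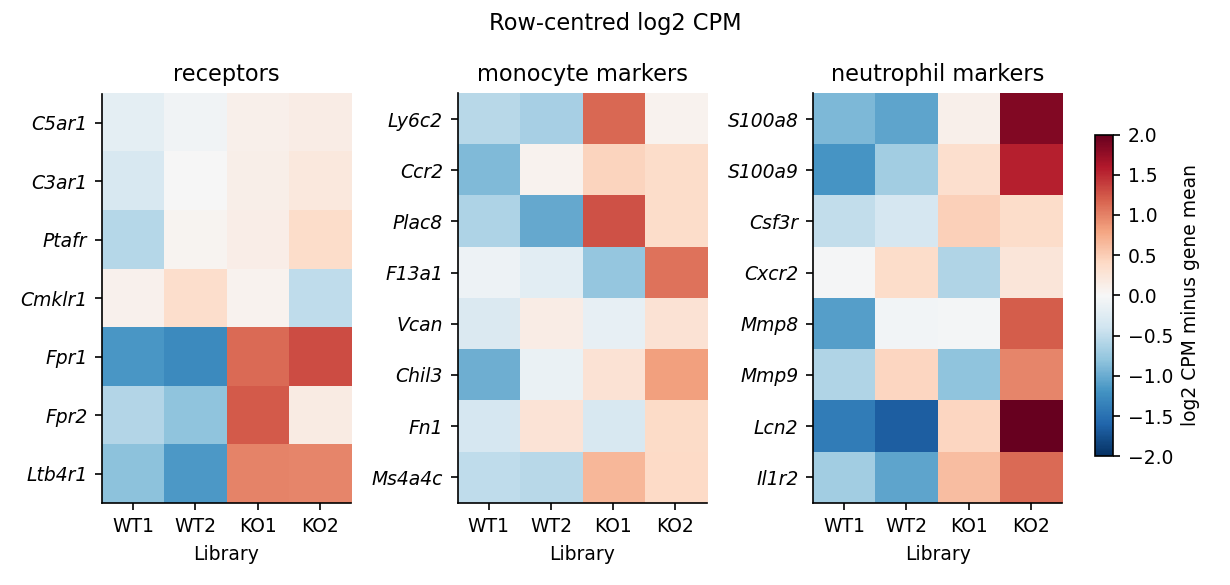
Log2 CPM minus the mean of each gene over the 4 libraries, for the 7 receptors, 8 monocyte markers and the 8 neutrophil markers that passed the filter, with red above and blue below the mean and the color scale ending at 2 in either direction. Fpr1 and Ltb4r1 are red in both KO-labelled libraries, Fpr2 and Ly6c2 are darkest in the first of them, and S100a8, S100a9 and Lcn2 in the second.

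Of 12 macrophage and sort markers, none was called by edgeR or DESeq2, and their median log2 difference was 0.25. It was above 0 for 11 of the 12. Both KO-labelled libraries were above both WT libraries for 7 of the 12 and below them for none, against 21.4% and 23% of all genes. An unadjusted p under 0.05 (edgeR) was found for 2 of the 12, both higher, against 12.2% of all genes (6.58% higher). Markers of dendritic cells summed to 69.4 to 133 CPM, those of T, NK and B cells to 63.5 to 193 CPM, and those of eosinophils and mast cells to 3.7 to 4.79 CPM over the 4 libraries. Both of the first lists had their highest sum in KO1. The melanoma markers summed to 813 CPM in WT1, 773 in WT2, 611 in KO1 and 804 in KO2, which overlapped, and the sum was mostly Tyr. Of these 7 markers only Tyr had a log2 difference above 0, and the median was -0.46. Both KO-labelled libraries were below both WT libraries for 4 of the 7, against 23% of all genes. Of the 7 dendritic cell markers tested, 5 had a log2 difference above 0, and the median was 0.50. The median was 0.85 for the 5 tested markers of T, NK and B cells. Ccr3, the only eosinophil or mast cell marker tested, had a log2 difference of -1.22. None of the genes on these 4 lists was called by edgeR or DESeq2, and 4 had an unadjusted p under 0.05 (edgeR), against 12.2% of all genes.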

How the data were processed

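RNA-seq libraries of sorted TAMs were analysed, 2 of them WT and 2 labelled Trim24-deficient. Per the labels and the methods, reads were aligned with Bowtie to GRCm38/mm10 and genes were quantified with RSEM (versions not given in the sources used here). The authors deposited an expected count per gene, which is not normalized (76.6% to 77.7% of values were whole numbers), and an FPKM, which RSEM scales to transcript length and library total. The deposited tables also hold transcript length, used for an alternative fit. Library totals were 4476122 to 5172407 expected counts, and limits from counts cover counting error only. Of 16739 genes, 16698 matched a symbol by Entrez identifier. A gene missing from a table was set to 0. Positions are from GENCODE M21 and promoter windows from RefSeq, both GRCm38.

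In R 4.3.3, rounded expected counts of 11302 genes kept by filterByExpr entered the quasi-likelihood test of edgeR 4.0.16 (TMM scaling, glmQLFit, glmQLFTest), with the genotype label as the only term. A call required a fold above 1.5 and a Benjamini-Hochberg FDR below 0.05, both over all genes tested. CPM values use the TMM-scaled library sizes. Standard errors are the log2 difference divided by the square root of F. Nothing in the labels says that replicate numbers pair libraries. The p-values weigh the group difference against the spread between these libraries, moderated over all genes (7.41 prior and 2 residual degrees of freedom). Whether that spread stands for the spread between mice is not known, since pooling is not stated. Alternatives were DESeq2 1.42.0, limma 3.58.1 on log2(FPKM + 1) and log2(FPKM + 0.1) with an FPKM of at least 1 in at least 2 libraries, other scalings and filters, a length trend, a replicate block and leaving out each library. The scripts were tested on simulated data.

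The receptors and gene lists were chosen with earlier results of these data known. A further monocyte marker, which was called higher, is not reported here and is left out of the counts and sums of that list. Genes are named if they are among the 7 receptors, Trim24, gate genes, the 5 nearest profiles, or in each list called (up to 6) or among the 4 highest in mean CPM. C5ar2, Ltb4r2, the receptors without a value above 0, Cfd, Gnai2, the partners stated in the text, Ly6g, Elane, Mpo, Lcn2, Il1r2, Mmp8, Plac8, Chil3, Vcan, Fn1, Mmp9, Tyr and Ccr3 were named after their values were seen.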

Additional observations from a re-analysis of the deposited data

How the results depend on the processing

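The log2 differences of Fpr1 (2.19 to 2.53), Ltb4r1 (1.74 to 2.16), Fpr2 (0.86 to 1.92), Ptafr (0.22 to 0.83), C3ar1 (0.17 to 0.49), C5ar1 (0.11 to 0.32) and Cmklr1 (-0.72 to -0.16) kept their sign under all 15 alternatives. Of these, the rule on FDR alone reused the main fit, so it could not change a log2 difference. With library totals in place of TMM, the median of all genes shifted to -0.154, and C5ar1 at 0.11 still lay above it. The count of receptors past the thresholds of a call, a description because their choice used this contrast, was 2 (Fpr1 and Ltb4r1) and became 3, with Fpr2, under the replicate block, with DESeq2 and without KO2. Over all genes, 42 were called, with 634 under the replicate block, 156 with DESeq2, 23 and 20 with limma (pseudocount 1 and 0.1), and 25 to 652 when 1 library was left out. With the block, 4 other receptors, 7 ligand genes, 3 signalling genes, 6 neutrophil and 5 monocyte markers were called, and with DESeq2 1, 5, 1, 4 and 4. Without the count filter 5 ligand genes, 1 neutrophil and 1 monocyte marker were called. The length trend left 2 ligand genes, library totals 0 signalling genes, and both limma fits 0 ligand and 0 signalling genes. Leaving out 1 library gave 0 to 4 other receptors, 0 to 7 ligand genes, 0 to 3 signalling genes, 0 to 7 neutrophil and 0 to 4 monocyte markers. The cause of these moves was not tested. A lone library was assumed to vary like the other group. Samples of the same replicate number share only a number: their deviations had a correlation of 0.161 over 11302 genes, and the block left 1 residual degree of freedom. The prior degrees of freedom of the block fit were estimated as infinite, against 7.41 in the main fit. Each gene's own spread therefore carried no weight in the p-values behind the block calls. With 2 libraries per group, genes under about 3 counts per library were not detectable at this depth.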
